A study of Mus musculus with 78 samples.

Results

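Steady-state mRNA was measured in mouse embryonic stem cells (mESCs) after 24 h of TRIM28 degradation and compared with the same cells kept in the solvent DMSO. The comparison used 6 of the 78 samples of the series, namely the 3 libraries at 24 h and the 3 DMSO libraries of a time course of 15 libraries, and covered every gene in the tables. Of 54446 genes, 17922 reached 1 TPM in at least 3 of the 15 libraries and were tested. TPM, the unit of the tables, is the abundance of a gene's transcripts corrected for their length and scaled so that every library has the same total.

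The cells were V6.5 mESCs, a male line from a cross of 2 inbred mouse strains, in which the Trim28 gene was edited so that the N terminus of the protein carries mRuby2, a P2A sequence and FKBP(F36V). The small molecule dTAG-13 links this FKBP domain to an E3 ubiquitin ligase, and the tagged protein is then destroyed by the proteasome. Cells received 500 nM dTAG-13 for 24 h, and control cells received 0.05% DMSO, so both groups carried the tag. The titles of the DMSO libraries read 0 h and give no time in DMSO. Whether time in culture and changes of medium were matched to the 24 h cells is therefore not known. The line was grown from a picked colony and stands for 1 clone. Cells were kept in serum with LIF, depleted of mouse embryonic fibroblast feeders before harvest and plated on gelatin. The study calls the replicates of its RNA-seq data biological, but the labels do not say whether they were separate cultures. The p-values below measure the spread between these libraries, which may be smaller than that between independent cultures. Libraries were made from polyadenylated RNA with a stranded kit.

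TRIM28 (also KAP1) is a corepressor that Krüppel-associated box (KRAB) zinc finger proteins carry to their DNA sites. There it recruits the histone methyltransferase SETDB1, which places H3K9me3, and heterochromatin proteins. In mESCs the complex is known for silencing endogenous retroviruses (ERVs), the relics of retroviral insertions, and for keeping DNA methylation at imprinted regions.

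The guide RNA target at which the tag was inserted is shown first, since the whole comparison rests on this allele. It lies at chr7:13024712-13024731 on the plus strand (GRCm38.p6), in exon 1 of Trim28, and covers the start codon at 13024719 to 13024721. The PAM is in capitals.

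Trim28 guide target: cgtgtgaatggcggcctcggCGG

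Degradation acts on the protein, and Trim28 mRNA was not its target. Trim28 mRNA was 622, 622 and 626 TPM in the 3 DMSO libraries and 369, 365 and 382 TPM at 24 h. The groups did not overlap, and the log2 change was -0.74 ± 0.05 (SE) with an adjusted p of 2.69e-08. Every change given here is the difference of mean log2(TPM + 0.5), which understates the change of genes near 0. SE is its standard error with n = 3 in each group, and the adjusted p is limma's with Benjamini-Hochberg correction over all 17922 genes. A gene was called higher or lower when the adjusted p was below 0.05 and the change was over 2-fold, so Trim28 mRNA was not called. With each library centred on its median, as described below, it was at -1.03 and called lower.

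At 24 h 1819 genes were called higher (10.1% of those tested) and 360 were called lower (2.01%). The numbers depended on how the libraries were scaled. The median gene was 0.13 higher at 24 h, and centring each library on its median gene lowered every log2 change by 0.29. On the centred scale 886 genes were called higher (4.94%) and 919 lower (5.13%). All 360 falls and 886 of the 1819 rises were called on both scales. Rises are therefore given below with a note where centring takes them under 2-fold, whereas no fall named here was lost by it. TPM values are shares of a library, and fewer cells expressing a gene cannot be told apart from less RNA per cell.

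Calls differed with the starting level. Of 4292 genes at 1 to 5 TPM in DMSO, 16.1% were called higher and 3.19% lower, and of 3572 genes at 50 TPM or more, 0.812% were called higher and 2.24% lower. The median log2 change was 0.26 in the first class and -0.19 in the second. The 2237 genes with a mean below 1 TPM in DMSO could pass the filter only with help from libraries of other groups, so nothing is read from the 26.3% of them that were called higher. Genes at 1 TPM or more numbered 15612 to 15831 per DMSO library and 16560 to 16783 per library at 24 h. The mitochondrial share of all TPM was 6.00 to 7.90% in DMSO and 9.39 to 11.1% at 24 h. The number of reads per library is not in the tables. Relative to the median library of the time course, depth estimated from read coverage was 0.344 for 24 h replicate 1, 1.25 and 1.46 for the other 24 h libraries and 0.925 to 1.21 for DMSO. Without the shallow replicate 1, 1768 genes were called higher and 345 lower.

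**Figure D1:**
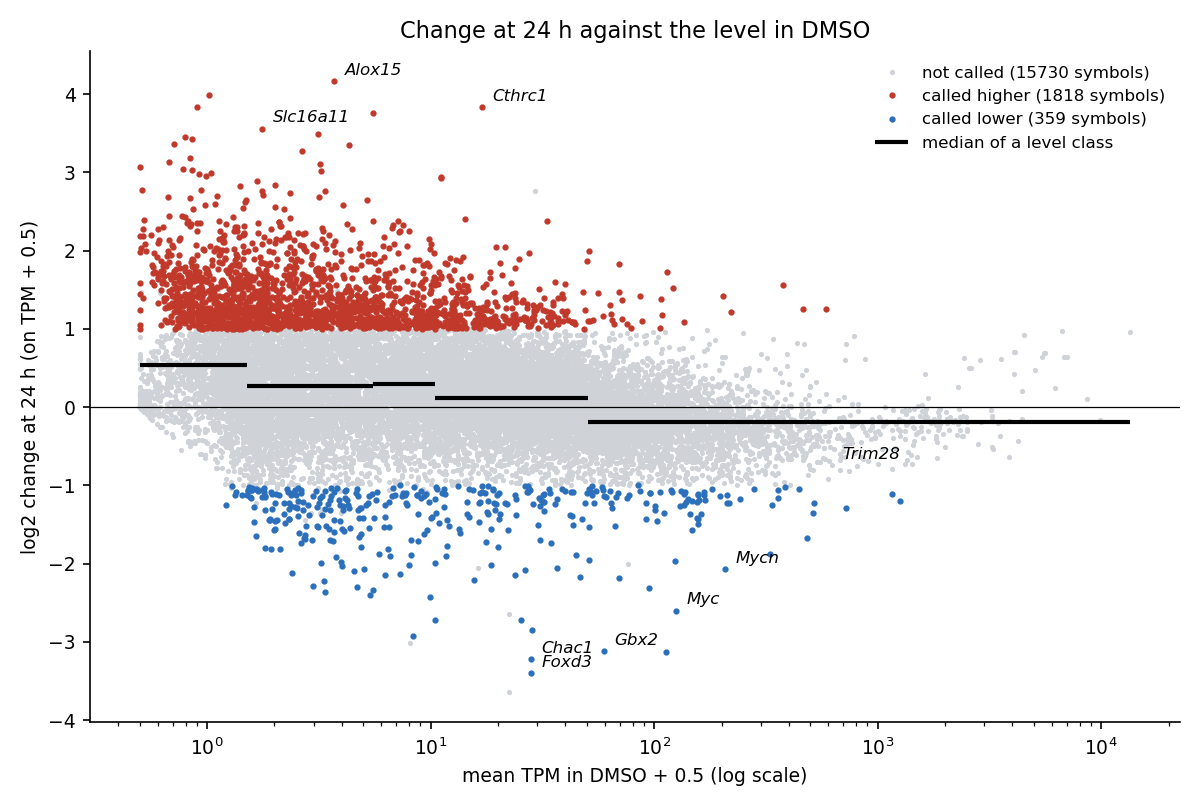
Each point is a tested gene, with its mean level in DMSO on the x axis (TPM + 0.5, log scale) and its log2 change at 24 h on the y axis. Red points were called higher, blue points lower and grey points were not called. The black bars are the medians of 5 level classes, with 0.26 for genes at 1 to 5 TPM and -0.19 for genes at 50 TPM or more, and the bar for genes below 1 TPM (0.54) is set in part by the filter on low values.

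The libraries carried the markers of mESCs, and those of other cell types did not rise as sets. The summed level of 8 mESC markers was 4907 to 5329 TPM in DMSO and 3314 to 3664 TPM at 24 h. The sum of 20 fibroblast markers of the feeder cells was 436 to 448 TPM in DMSO and 386 to 455 TPM at 24 h, with 1 marker at 0 in each library. The sum of 10 primitive and parietal endoderm markers was 337 to 346 TPM and 331 to 361 TPM. The 6 trophoblast markers summed to 43.5 to 46.8 TPM in DMSO against 36.3 to 37.0 TPM at 24 h, and the 5 neural markers to 63.6 to 64.6 TPM against 41.1 to 49.5 TPM. The 4 markers of the 2-cell-like state stood at 87.7 to 95.5 TPM in DMSO and 76.6 to 84.1 TPM at 24 h.

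The 10 largest falls among protein-coding genes, taken where the groups did not overlap and DMSO averaged at least 5 TPM, were led by transcription factors of pluripotent cells. Foxd3 (chr4:99656299-99658622), a forkhead repressor needed to keep mESCs undifferentiated, read 27.1, 29.3 and 26.8 TPM in DMSO and 1.79, 2.17 and 2.60 TPM at 24 h. The log2 change was -3.40 ± 0.10 (adjusted p = 1.28e-11). The groups were far apart, and most of the fall came after 6 h, when the mean was still 17.9 TPM.

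Gbx2 (chr1:89927956-89931179), a homeobox gene and target of STAT3, went from 61.2, 60.9 and 54.8 TPM to 6.43, 5.61 and 7.01 TPM, a log2 change of -3.12 ± 0.08. Nr0b1 (chrX:86191764-86195947), the orphan nuclear receptor DAX1 that binds OCT4, went from 27.1, 28.6 and 27.5 TPM to 3.86, 3.21 and 3.23 TPM (-2.85 ± 0.08). Myc (chr15:61985391-61990374), the growth-promoting bHLH factor, stood at 130.3, 121 and 123 TPM in DMSO and at 19.5, 18.8 and 22.3 TPM at 24 h (-2.60 ± 0.05). In each of these genes the lowest DMSO library was more than 5 times the highest library at 24 h, with adjusted p of 9.37e-12 or less.

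Chac1 (chr2:119351229-119354381), the γ-glutamylcyclotransferase that degrades glutathione and a classical target of the stress factor ATF4, went from 27.9, 31.1 and 23.6 TPM to 2.01, 2.95 and 2.61 TPM (-3.22 ± 0.13, adjusted p = 2.01e-10). Tex19.1 (chr11:121146143-121148319), a germ cell and placenta gene that restrains retrotransposons, went from 91.1, 101 and 91.3 TPM to 20.5, 17.8 and 17.7 TPM (-2.31 ± 0.09, adjusted p = 1.26e-10). Spink1, a secreted trypsin inhibitor, read 24.8, 24.1 and 25.8 TPM in DMSO and 1.82, 4.15 and 4.73 TPM at 24 h (-2.72 ± 0.28, adjusted p = 1.15e-06). Of these libraries the shallow replicate 1 gave the lowest Spink1 value.

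Fst, which encodes the activin antagonist follistatin, went from 10.1, 8.63 and 9.65 TPM to 2.02, 1.07 and 1.07 TPM (-2.43 ± 0.16). Enox1, a cell surface oxidase gene, went from 14.7, 15.6 and 14.8 TPM to 2.60, 2.81 and 3.17 TPM (-2.21 ± 0.09). The tenth is uncertain. Gm49380 on chromosome 9 shares its strand with 3 overlapping genes, and its values of 12.5, 3.45 and 13.8 TPM in DMSO against 0.636, 1.94 and 0.441 TPM at 24 h (-2.71 ± 0.79, adjusted p = 0.00725) depend on how reads were divided among them. The change was -3.31 without DMSO replicate 2.

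Among genes of other types the largest falls were the long noncoding RNAs Gm46332 and Platr7 and the microRNA precursor Mir302a. Gm46332 (chr12:4552546-4569538) went from 114, 107 and 116 TPM to 8.57, 14.1 and 15.9 TPM (-3.12 ± 0.28, adjusted p = 2.83e-07). Platr7, a pluripotency-associated transcript, went from 7.55, 7.59 and 8.24 TPM to 0.752, 0.800 and 0.294 TPM (-2.93 ± 0.15, adjusted p = 1.28e-09). Both continued to 0.250 TPM or less at 96 h.

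The 10 largest rises by the same rule were a mixed set of metabolic enzymes, transporters, a secreted matrix protein and a zinc finger gene. Alox15 (chr11:70344152-70352031), the lipoxygenase that oxidises arachidonic and linoleic acid, read 3.00, 3.52 and 3.08 TPM in DMSO and 65.5, 64.9 and 66.7 TPM at 24 h (4.16 ± 0.12, adjusted p = 1.22e-11). Cthrc1 (chr15:39076932-39087121), a secreted glycoprotein of the extracellular matrix, went from 16.6, 18.3 and 14.5 TPM to 236, 247 and 239 TPM (3.84 ± 0.09, adjusted p = 2.42e-12). Both genes were nearer to DMSO at 96 h, with means of 23.3 TPM for Alox15 and 85.8 TPM for Cthrc1.

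Slc16a11, a monocarboxylate transporter gene on chromosome 11, went from 1.47, 1.16 and 1.16 TPM to 18.3, 22.0 and 20.5 TPM (3.56 ± 0.17). Cyp2b23, a cytochrome P450 gene, went from 2.51, 2.76 and 2.58 TPM to 30.5, 36.9 and 36.7 TPM (3.49 ± 0.11). Chst1, a sulfotransferase that modifies keratan sulfate, went from 2.04, 2.64 and 1.82 TPM to 26.2, 25.5 and 23.5 TPM (3.27 ± 0.10). The 3 genes were almost silent in DMSO, and the adjusted p was 8.76e-10 or less for each.

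Grin1 (chr2:25291181-25319187), the obligate subunit of the NMDA glutamate receptor, read 0.509, 0.683 and 0.412 TPM in DMSO and 7.90, 8.56 and 6.67 TPM at 24 h (2.99 ± 0.15, adjusted p = 1.38e-09). 2010005H15Rik, a stefin-like gene on chromosome 16, read 0.496, 0.142 and 0 TPM in DMSO and 6.72, 4.86 and 8.40 TPM at 24 h (3.36 ± 0.27, adjusted p = 8.8e-08). Grin1 was back at 0.151 TPM at 96 h, whereas 2010005H15Rik remained at 6.28 TPM.

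Some of the largest rises are uncertain, because near-identical copies or overlapping genes share their reads. Sfi1, a centrosomal protein gene with many partial copies, went from 3.33, 3.75 and 4.35 TPM to 40.0, 46.7 and 43.2 TPM (3.35 ± 0.09). Zfp773, one of a large zinc finger family, went from 2.64, 2.13 and 3.32 TPM to 22.7, 30.3 and 27.7 TPM (3.11 ± 0.13). The pseudogene Gm11331 went from 0.263, 0.492 and 0.435 TPM to 8.74, 14.2 and 14.5 TPM (3.83 ± 0.21). In these 3 the groups were clearly separate, but the locus that produced the reads could be a related one.

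Gm49394 lies across Igf2 on the same strand of chromosome 7 and went from 8.92, 5.53 and 0.542 TPM to 58.1, 51.9 and 47.6 TPM (3.76 ± 0.64, adjusted p = 0.000133). Its DMSO values were widely spread, and the change was 2.81 without DMSO replicate 3 and 4.40 without DMSO replicate 1. Igf2 itself, the fetal growth factor, was at 122, 126 and 125 TPM in DMSO and at 185, 158 and 168 TPM at 24 h (0.45 ± 0.07) and was not called. The antisense transcript Gm29439 went from 0.0922, 0.196 and 0.593 TPM to 6.32, 9.63 and 8.09 TPM (3.45 ± 0.21). Gm29439 was below 1 TPM in every other library of the time course. It passed the filter only through its libraries at 24 h, so nothing is read from its place among the largest rises. Rn7s6, a copy of the 7SL RNA of the signal recognition particle, was at 0, 1.54 and 0 TPM in DMSO and 23.5, 20.0 and 3.64 TPM at 24 h (3.99 ± 0.73, adjusted p = 0.000227). It was also at a mean of 16.6 TPM at 6 h, and its 3 values at 24 h were widely spread, with a change of 4.80 without 24 h replicate 3. It was 4.67 without DMSO replicate 2, the only control library above 0.

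**Figure D2:**
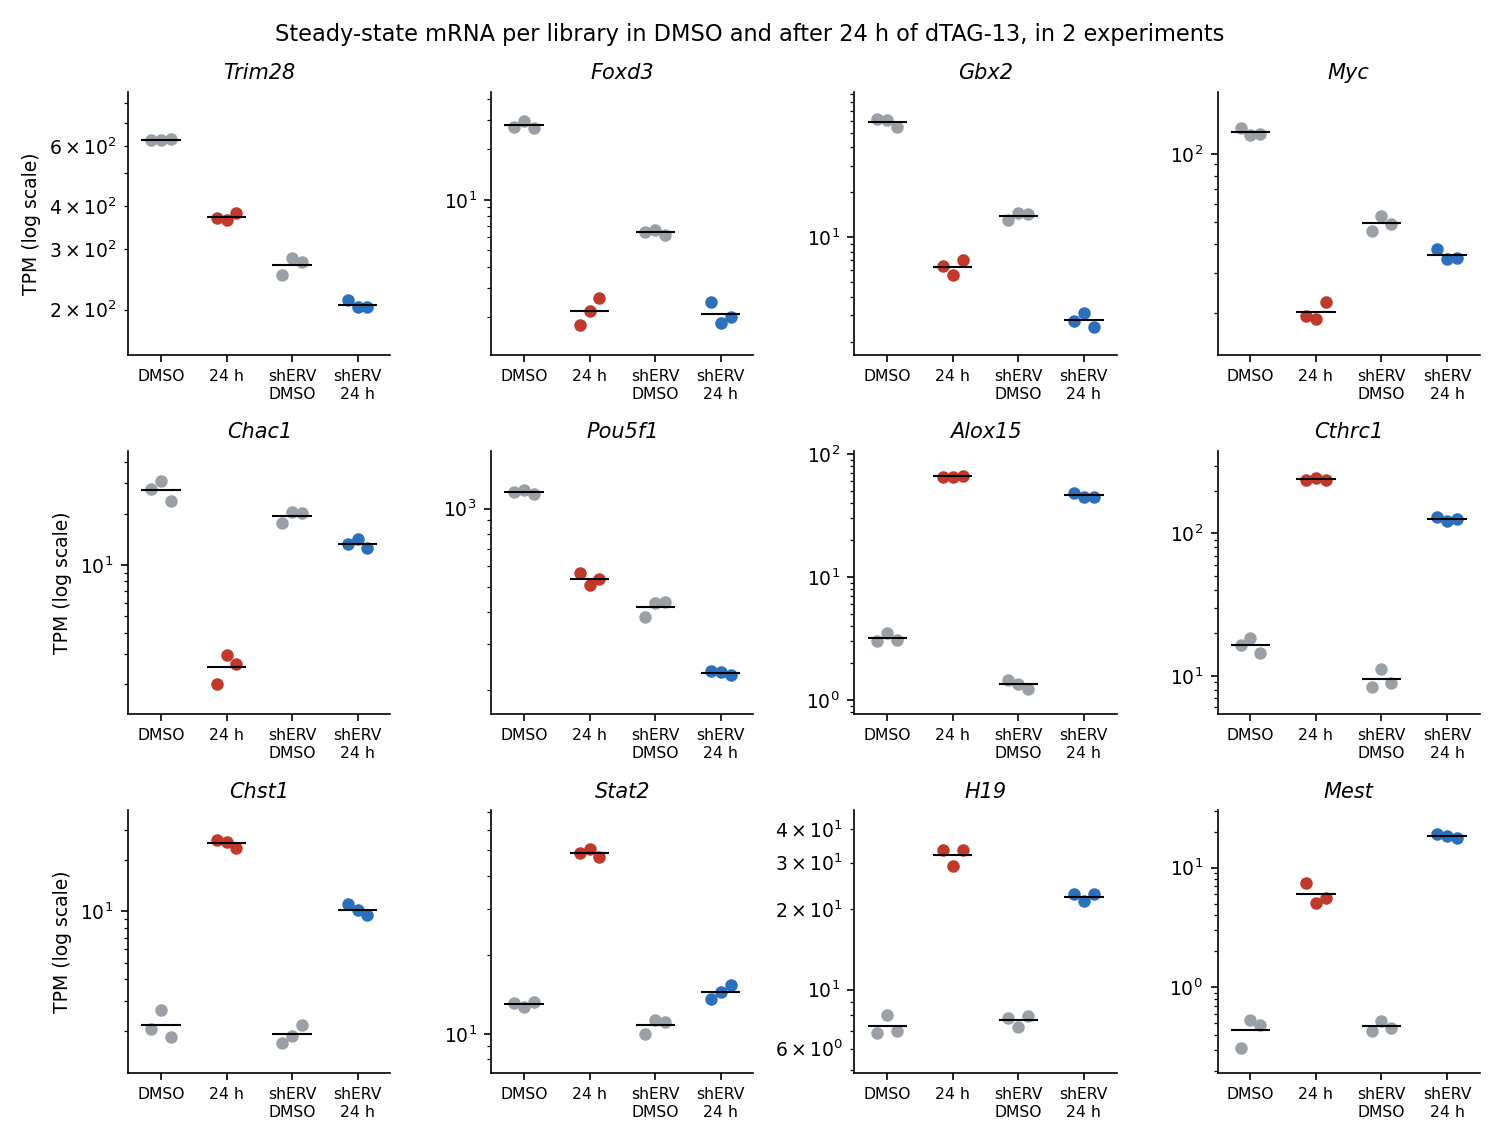
TPM on a log scale for 12 genes, with 1 point for each library and a black line at the mean of the 3 libraries of a group. Grey points are DMSO libraries, red points are the time course at 24 h and blue points are the shERV line at 24 h. Foxd3, Gbx2, Myc and Chac1 lie far below DMSO in the time course, where Chac1 fell from a mean of 27.6 TPM to 2.52 TPM.

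The gene lists that follow were chosen with earlier results of these data known, so their counts describe the lists and test nothing. The network of naive pluripotency was read first, as a list of 20 genes, all of which were tested. No member rose, and 9 fell against 2.01% of all genes. The median log2 change of the list was -0.83, and it was 0.13 over all genes tested. Pou5f1, which encodes OCT4, fell from 1163, 1181 and 1141 TPM to 564, 508 and 537 TPM (-1.11 ± 0.08). Klf4, a core factor downstream of LIF, fell from 43.0, 45.5 and 43.9 TPM to 11.8, 11.7 and 11.1 TPM (-1.89 ± 0.04). Mycn fell from 211, 211 and 201 TPM to 49.4, 46.5 and 51.8 TPM (-2.07 ± 0.06).

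Klf5, Zfp42 (REX1) and Tdh, the threonine dehydrogenase that feeds one-carbon metabolism in mESCs, fell as well, with log2 changes of -1.43, -1.26 and -1.36. Nr5a2 (-1.01) and Tcl1 (-1.06) were close to the 2-fold limit. Nr5a2 was at -0.92, -0.94 and -0.99, and not called, without DMSO replicate 3 and without replicates 2 and 3 at 24 h, and Tcl1 at -0.98 without DMSO replicate 2 and -0.99 without replicate 2 at 24 h. Nr0b1, described above, was the ninth member that fell.

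The other core factors were not called. Sox2 went from 212, 206 and 195 TPM to 146, 126 and 122 TPM (-0.64 ± 0.06), and Esrrb from 110.4, 106 and 108 TPM to 69.6, 71.7 and 65.3 TPM (-0.65 ± 0.07). Nanog stood apart from the rest of the list, at 135, 142 and 132 TPM in DMSO and 208, 198 and 191 TPM at 24 h (0.54 ± 0.06). It was the 1 member that passed the adjusted p upward at any size of change. Sall4 (-0.87) and the growth factor Fgf4 (-0.79) passed 2-fold only on the centred scale, and Klf2 (-0.32) and Tfcp2l1 (-0.10) were called on neither.

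The next list held genes of the formative and primed states, which mESCs switch on as they leave the naive state. Of 19 genes tested 8 fell (2.01% of all genes did) and none rose, with a median of -0.93, and 2 were higher past the adjusted p at a smaller size of change. Beside Foxd3, these were Lef1, the nuclear partner of β-catenin (25.0, 26.5 and 26.1 TPM to 5.63, 5.59 and 5.98 TPM, -2.08 ± 0.05), Fgf15 (-1.77), Sall3 (-1.70), Fgf5 (-1.48), Sall1 (-1.22), Pou3f1 (-1.08) and the de novo DNA methyltransferase Dnmt3b (-1.04). Fgf5, the standard marker of primed cells, was at 1.80, 1.79 and 1.63 TPM in DMSO and 0.230, 0.393 and 0.300 TPM at 24 h. Otx2, the factor that opens the formative programme, was at 13.8, 13.6 and 14.1 TPM in DMSO and 17.5, 14.6 and 12.99 TPM at 24 h (0.11 ± 0.10, adjusted p = 0.348). Its groups overlapped, and its change was -0.18 after centring.

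Target lists of the signals that act on mESCs in culture were read next. LIF, the cytokine that sustains self-renewal through STAT3, had 14 tested genes on its list, of which 3 fell and none rose. Over all genes 2.01% fell and 10.1% rose. Gbx2 and Klf4, described above, were among them. Socs3, the direct feedback inhibitor that STAT3 induces, was 69.1, 68.7 and 69.4 TPM in DMSO and 59.1, 58.6 and 62.0 TPM at 24 h (-0.20 ± 0.04), and Stat3 itself was 47.6, 45.9 and 49.0 TPM and 43.0, 44.6 and 43.2 TPM (-0.12 ± 0.04). The median of the LIF list was -0.16.

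FGF acts in mESCs through ERK. Of 15 tested genes on the list of its feedback genes 4 fell (2.01% of all genes did) and none rose, with a median of -0.77, and 3 were higher past the adjusted p at a smaller size of change. Etv4, an ETS factor induced by ERK, fell from 127, 119.8 and 124 TPM to 25.4, 35.9 and 33.5 TPM (-1.96 ± 0.16). The Sprouty genes, which brake the pathway, did not move as one. Spry4 fell from 36.3, 36.2 and 36.3 TPM to 9.55, 7.73 and 7.92 TPM (-2.05 ± 0.08) and Spry2 by 1.16 on the log2 scale, whereas Spry1 stood at 16.1, 14.7 and 14.5 TPM in DMSO and 26.9, 22.9 and 22.5 TPM at 24 h (0.65 ± 0.07, not called). Egr1 fell by 1.01, but was at -0.98 without DMSO replicate 1 and -0.95 without 24 h replicate 2. The receptor Fgfr1 was not called (0.73).

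**Figure D3:**
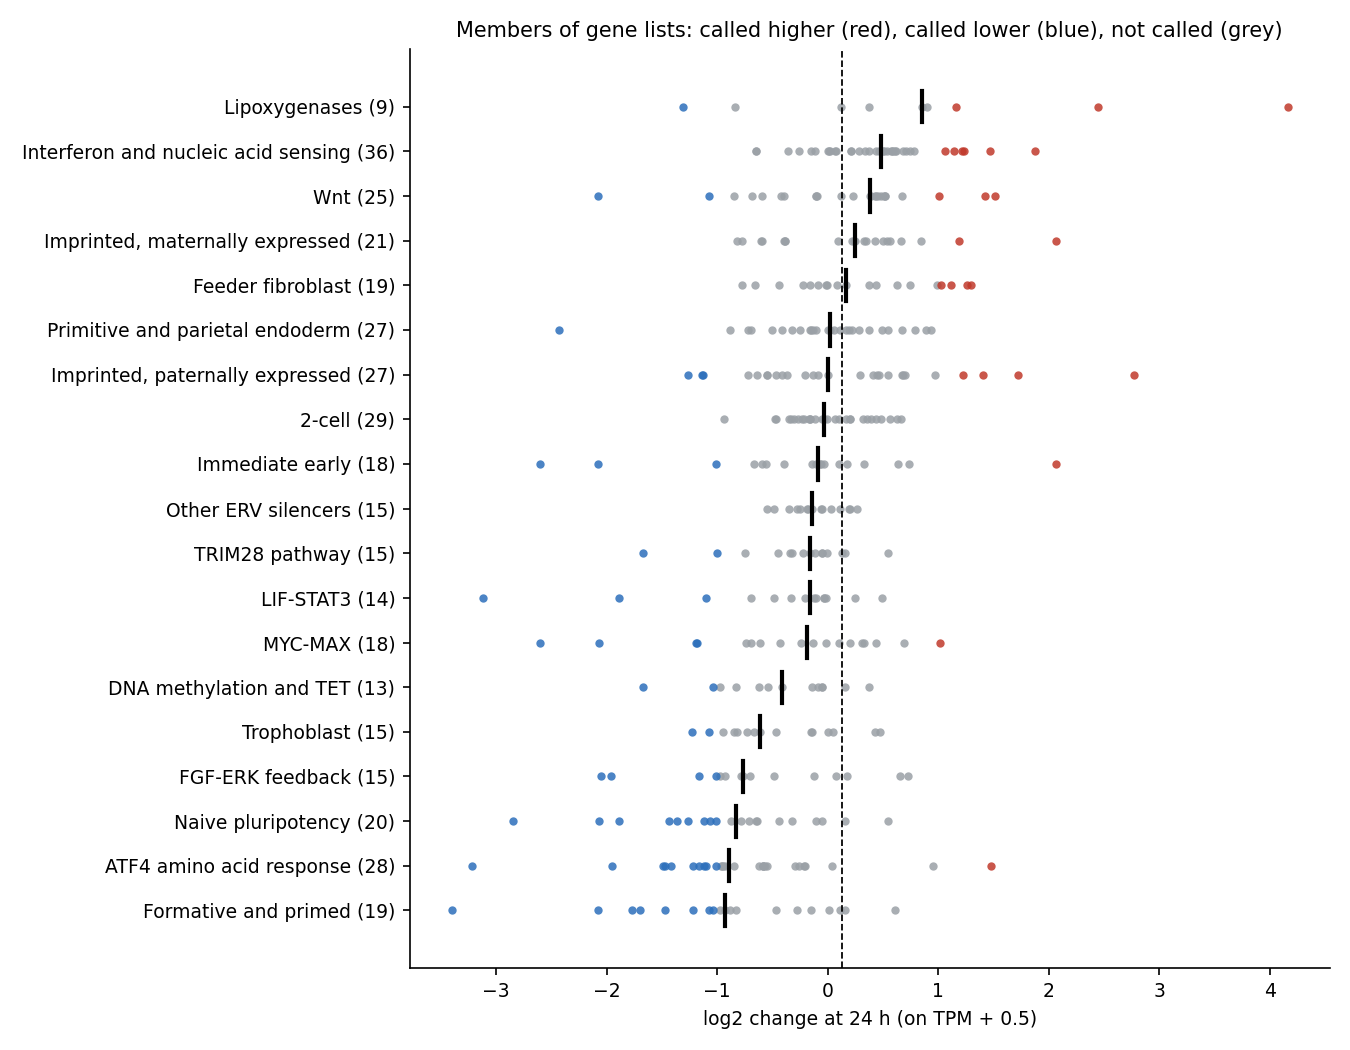
Each point is a tested gene, placed by its log2 change at 24 h in the row of its list, with the number tested in brackets. The black tick is the list's median and the dashed line the median of all genes tested, 0.13. The formative, amino acid response and naive lists have medians of -0.93, -0.89 and -0.83, and the interferon list of 0.48.

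The microRNA clusters of mESCs are shown with their mature sequences, because 5 of the 10 arms printed share the seed AAGUGCU, the part that sets their targets. The miR-290 to 295 cluster on chromosome 7 and the miR-302/367 cluster on chromosome 3 encode the most abundant microRNAs of pluripotent cells, which speed the G1 phase of the cell cycle. The lines give the 3p arms from RefSeq (GRCm38.p6), 5′ to 3′, with the seed (bases 2 to 8) in capitals.

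miR-291a-3p: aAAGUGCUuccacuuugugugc
miR-294-3p: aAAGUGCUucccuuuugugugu
miR-295-3p: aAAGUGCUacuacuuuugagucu
miR-302b-3p: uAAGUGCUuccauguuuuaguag
miR-302d-3p: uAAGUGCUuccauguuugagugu
miR-302c-3p: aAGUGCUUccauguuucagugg
miR-290a-3p: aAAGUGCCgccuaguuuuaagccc
miR-291b-3p: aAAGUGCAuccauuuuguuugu
miR-293-3p: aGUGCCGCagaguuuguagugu
miR-367-3p: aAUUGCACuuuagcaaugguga

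The first 5 share the seed AAGUGCU, and miR-302c-3p, miR-290a-3p and miR-291b-3p carry close variants of it. The seeds of miR-293-3p and miR-367-3p differ from the family seed.

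The values belong to the precursor genes, which are under 100 bases long, and polyadenylated libraries read them through the long primary transcript. Mir294 was 12.7, 10.7 and 30.8 TPM in DMSO and 2.37, 3.91 and 4.96 TPM at 24 h (-2.02 ± 0.38, adjusted p = 0.000279). Mir295 was 34.0, 23.7 and 44.0 TPM in DMSO and 6.64, 10.4 and 12.4 TPM at 24 h (-1.73 ± 0.32). In the chromosome 7 cluster Mir290a (-1.53), Mir293 (-1.51), Mir291b (-1.21) and Mir292 (-1.08) fell too, and Mir291a was not tested. Mir291b was at -0.90 without DMSO replicate 3. Mir292 was at -0.99, -0.98 and -0.98 without DMSO replicate 1, DMSO replicate 3 and 24 h replicate 2, and was then not called.

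In the chromosome 3 cluster Mir302d fell from 4.79, 3.98 and 5.80 TPM to 0.622, 0.222 and 0.765 TPM (-2.40 ± 0.37, adjusted p = 5.42e-05). Mir302a fell from 4.05, 3.82 and 7.16 TPM to 0, 0.636 and 1.54 TPM (-2.34 ± 0.57), Mir367 by 2.14 and Mir302c by 1.41 on the log2 scale. Mir302b was 4.06, 3.35 and 5.21 TPM in DMSO and 1.79, 2.25 and 1.79 TPM at 24 h (-0.93 ± 0.24). It was called at -1.07 without DMSO replicate 2 and at -1.02 without 24 h replicate 2. DMSO replicate 3 gave the highest value of both clusters for every precursor named here with its libraries.

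The amino acid response was the next large group. ATF4 is a bZIP factor that is translated when amino acids are scarce or the endoplasmic reticulum is stressed, and it induces amino acid transporters, aminoacyl-tRNA synthetases and enzymes of serine and one-carbon metabolism. Of 28 tested genes on the list 10 fell (2.01% of all genes did) and 1 rose (10.1%), and the median was -0.89. With C/EBP partners ATF4 binds composite sites that hold TGATGNAA. This motif was found on either strand in the promoters of 8 of the 22 list genes with an entry in the RefSeq promoter table (36.4%), which spans 250 bases before to 50 bases after each start. Of the 10 list genes called lower 6 had an entry and 4 of these held it. The share was 6.58% of the 228 genes called lower with an entry, 2.76% of the 11294 tested genes with one and 4.51% of all 27025 genes of the promoter table. List members were chosen as genes of the ATF4 response, so a higher share was set by that choice and nothing is read from it. Asns, Aars, Gars and Vldlr held the motif and were not called lower. The promoters of the 2 list genes with the largest falls are printed 5′ to 3′ on the gene's strand with the motif match in capitals, where both matches lie on the opposite strand.

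Chac1 promoter, chr2:119350992-119351291 (GRCm38.p6, plus strand): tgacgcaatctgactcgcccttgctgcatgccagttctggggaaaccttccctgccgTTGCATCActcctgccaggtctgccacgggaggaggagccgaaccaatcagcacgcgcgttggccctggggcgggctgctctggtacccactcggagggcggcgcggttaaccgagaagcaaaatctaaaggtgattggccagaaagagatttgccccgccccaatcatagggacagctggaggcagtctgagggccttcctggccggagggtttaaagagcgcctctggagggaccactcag
Trib3 promoter, chr2:152344011-152344310 (GRCm38.p6, minus strand): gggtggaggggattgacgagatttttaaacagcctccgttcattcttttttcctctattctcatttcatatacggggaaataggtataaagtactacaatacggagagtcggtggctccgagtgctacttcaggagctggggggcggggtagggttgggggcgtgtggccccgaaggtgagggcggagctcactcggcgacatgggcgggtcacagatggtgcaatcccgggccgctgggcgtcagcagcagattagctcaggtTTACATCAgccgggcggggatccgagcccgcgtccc

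Trib3, the pseudokinase that feeds back on ATF4, fell from 52.1, 51.8 and 47.1 TPM to 12.97, 11.6 and 13.3 TPM (-1.95 ± 0.07, adjusted p = 1.01e-10). The amino acid exchangers Slc7a11 (-1.47), Slc7a5 (-1.22) and Slc7a3 (-1.12) fell. Slc7a5, which imports leucine, went from 219, 218 and 207 TPM to 91.9, 86.7 and 97.3 TPM. Cth of the transsulfuration pathway went from 161, 159 and 150.4 TPM to 52.3, 55.0 and 59.4 TPM (-1.49 ± 0.07), and Mthfd2 of mitochondrial one-carbon metabolism from 159, 157 and 148 TPM to 50.5, 59.5 and 63.2 TPM (-1.42 ± 0.07). The stress genes Nupr1 (-1.17) and Sesn2 (-1.10) completed the 10 with Chac1. The groups did not overlap in any of the genes whose libraries are given here, as was so for 26.2% of all genes toward lower values.

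Atf4 mRNA was 265, 263 and 271 TPM in DMSO and 137, 130.2 and 141 TPM at 24 h (-0.97 ± 0.03), which passed 2-fold only after centring. Psat1 of serine synthesis was close to that limit as well (-0.95 ± 0.07, and -1.01 with a call without DMSO replicate 3). Asns, the asparagine synthetase and a direct ATF4 target, was 411, 413 and 387 TPM against 336, 333 and 341 TPM (-0.26 ± 0.05). Ddit4, an inhibitor of mTOR that also answers to other stresses, was the rise, from 69.6, 71.8 and 64.9 TPM to 201, 199 and 176 TPM (1.47 ± 0.07). Ddit3, which encodes CHOP, was 9.10, 7.45 and 8.60 TPM and 17.1, 18.1 and 14.8 TPM (0.95 ± 0.09), and was called without DMSO replicate 1 (1.01) and without 24 h replicate 3 (1.03).

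The median member of the list differed by -0.03 between 6 h and 24 h. In the direct contrast of 24 h with 6 h, in which 1140 genes were called higher (6.36%) and 299 lower (1.67%, 8.03% in all), 2 list members were called higher and none lower. Chac1 had a mean of 1.57 TPM at 2 h, 4.22 TPM at 6 h and 2.52 TPM at 24 h, and Mthfd2 of 59.2 TPM at 6 h and 57.8 TPM at 24 h. Foxd3, Myc and Gbx2 by contrast were called lower between 6 h and 24 h, with log2 changes of -2.78, -2.52 and -3.02.

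**Figure D4:**
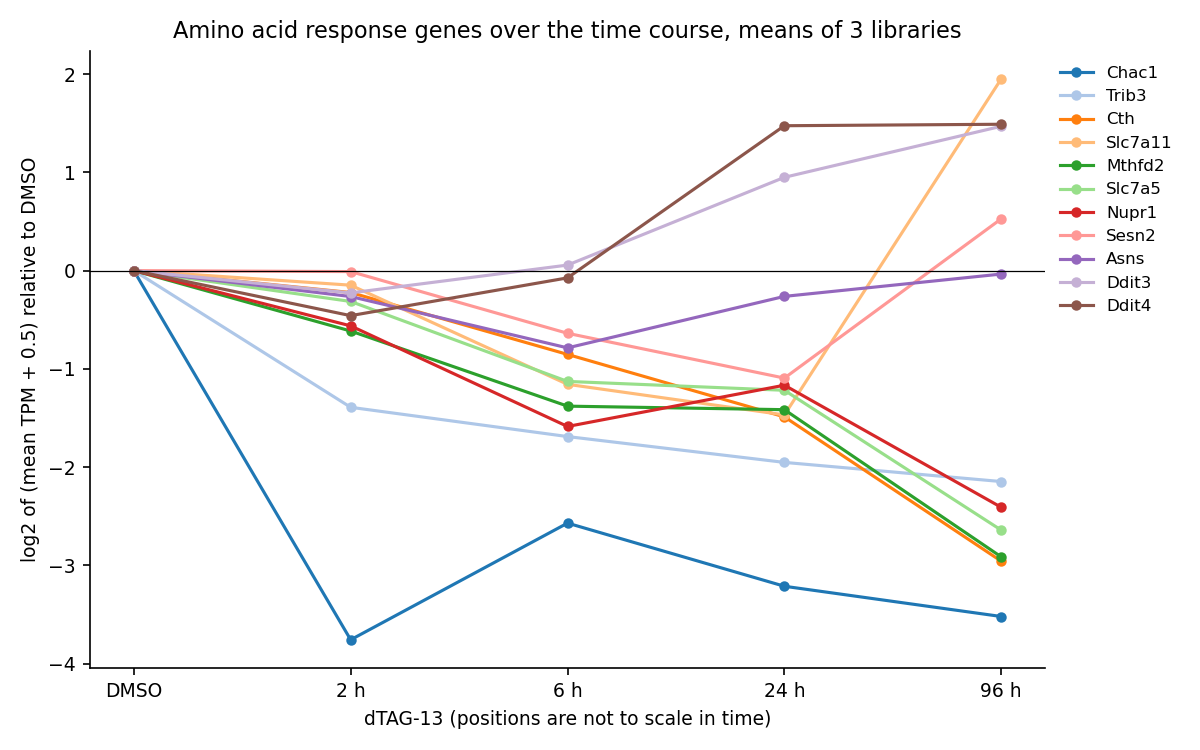
Mean TPM of 3 libraries for 11 genes of the amino acid response in DMSO and after 2, 6, 24 and 96 h of dTAG-13, as log2 of (mean TPM + 0.5) relative to DMSO. The time points are evenly spaced and not to scale. Chac1 was lowest at 2 h (1.57 TPM), and Trib3 went from 18.9 TPM at 2 h to 12.6 TPM at 24 h.

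Of 18 MYC and MAX network genes and targets 4 fell and 1 rose, against 2.01% and 10.1% of all genes. The G1 cyclin gene Ccnd1 fell from 165, 171 and 168 TPM to 70.3, 71.8 and 78.6 TPM (-1.19 ± 0.07), and Ccnd2 from 9.80, 9.94 and 10.0 TPM to 3.74, 3.86 and 4.78 TPM (-1.18 ± 0.07). Mxd4, a repressor that competes with MYC for MAX, rose from 2.80, 2.91 and 2.73 TPM to 6.58, 5.74 and 6.33 TPM (1.02 ± 0.07). It was at 0.73 after centring and at 0.98, and not called, without 24 h replicate 1.

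Immediate early genes, which respond to growth factors within minutes, were split. Fos rose from 5.64, 5.09 and 6.06 TPM to 27.3, 24.8 and 22.9 TPM (2.06 ± 0.09), and its relative Fosl1 fell from 4.58, 4.13 and 4.91 TPM to 0.530, 0.662 and 0.927 TPM (-2.07 ± 0.12). Fosl1, Egr1 and Myc were the 3 falls among 18 tested genes, and Fos the rise, where 2.01% of all genes fell and 10.1% rose. Of 20 p53 target genes 2 rose and 1 fell, beside the same shares of all genes. Trp53inp1 went from 65.1, 62.2 and 60.8 TPM to 165, 156 and 147 TPM (1.31 ± 0.05), and Sesn1 (1.17) was under 2-fold after centring (0.88). The fall was Sesn2, which ATF4 also controls.

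Few partners of TRIM28 were called. Of 15 genes of the TRIM28 pathway 2 fell and none rose, against 2.01% and 10.1% of all genes, with a median of -0.16. At any size of change 8 were lower past the adjusted p and 3 higher, against 25% and 42.9% of all genes. Starting levels were not matched. Dnmt3l, the catalytically inactive cofactor of de novo DNA methylation, fell from 483, 496 and 470.0 TPM to 159, 143 and 152 TPM (-1.67 ± 0.05). Smarcad1, a chromatin remodeller that binds TRIM28, was at the limit with 85.2, 84.0 and 84.3 TPM in DMSO and 40.7, 42.3 and 43.0 TPM at 24 h (-1.001 ± 0.05). It was not called without DMSO replicate 1 (-0.99) or 24 h replicate 1 (-0.98), which left 1 fall in the list. Setdb1 was 74.7, 76.3 and 78.3 TPM and 82.1, 84.1 and 84.4 TPM, a log2 change of 0.13 ± 0.03 that turned to -0.16 after centring. None of 15 other ERV silencing genes was called.

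In the list of 13 DNA methylation and TET genes the falls were Dnmt3l and Dnmt3b, where 2.01% of all genes fell. Dnmt3b went from 448, 451 and 438 TPM to 211, 211 and 228 TPM (-1.04 ± 0.04). The maintenance enzyme gene Dnmt1 was 153, 153 and 156 TPM and 148, 151 and 148 TPM (-0.05 ± 0.03, adjusted p = 0.146). Dnmt3a was spread within its groups, at 104, 99.1 and 159.7 TPM in DMSO and 80.6, 52.5 and 69.4 TPM at 24 h (-0.83 ± 0.25).

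KRAB zinc finger genes are themselves TRIM28 targets in many clusters. Of 384 tested Zfp genes 26 rose (10.1% of all genes did) and 5 fell. After centring 6 rose and 13 fell, and its median was 0.24 as deposited and -0.05 centred. Counts over all genes shifted the same way with centring, from 10.1% higher and 2.01% lower to 4.94% and 5.13%. Zfp872 rose from 0.349, 0.273 and 0.338 TPM to 3.69, 3.46 and 4.22 TPM (2.38 ± 0.20), Zfp30 from 2.14, 2.11 and 1.79 TPM to 9.28, 8.88 and 8.37 TPM (1.90 ± 0.09) and Zfp677 from 1.91, 2.00 and 2.01 TPM to 8.24, 8.05 and 7.87 TPM (1.79 ± 0.09). These 3 rises held after centring. Zfp872 reached 1 TPM in fewer than 3 libraries outside 24 h, so it was tested only through its libraries at 24 h. Zfp819 was the largest of the falls named here, from 19.2, 19.1 and 20.1 TPM to 4.62, 5.83 and 5.45 TPM (-1.79 ± 0.10). Paralogues in these clusters are similar, and reads may be shared between them.

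Of 14 genes on a list of zinc finger proteins with described targets 1 rose and 1 fell, and the gene that fell, Zfp42, has no KRAB domain. Gm15446 rose from 14.9, 14.8 and 15.5 TPM to 31.5, 31.2 and 30.6 TPM (1.02 ± 0.04, 0.73 after centring), and the value of Zfp42 is given above. Zfp57, which protects imprinted regions, was 413, 409.6 and 508 TPM in DMSO and 295, 357 and 349 TPM at 24 h (-0.41 ± 0.08). Zfp809, which recognises the primer binding site of a retrovirus family, was 74.3, 75.6 and 83.3 TPM and 109, 109.8 and 105 TPM (0.47 ± 0.06). Neither was called.

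Imprinted genes are expressed from 1 parental allele, and the tables do not separate alleles. Of 27 genes on the paternal list 4 rose and 3 fell, and of 21 genes on the maternal list 2 rose and none fell, against 10.1% and 2.01% of all genes. The paternal list held Zim1, which is expressed from the maternal allele, so these counts do not separate the parental origins cleanly. Mest, a hydrolase gene of growing embryos, rose from 0.307, 0.534 and 0.484 TPM to 7.36, 5.01 and 5.55 TPM (2.77 ± 0.13, adjusted p = 5.66e-10), with 3 overlapping genes on its strand. H19 (chr7:142575529-142578143), the maternally expressed noncoding RNA next to Igf2, rose from 6.85, 8.05 and 6.99 TPM to 33.6, 29.1 and 33.5 TPM (2.06 ± 0.11, adjusted p = 1.43e-09).

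Zim1 (1.72) and Airn (1.41), the antisense RNA that silences its neighbours on the paternal allele, rose, and so did the zinc finger gene Plagl1 (1.23) and the calcitonin receptor Calcr (1.19). The last 2 were under 2-fold after centring, at 0.94 and 0.90. Calcr reached 1 TPM in fewer than 3 libraries outside 24 h, so it was tested only through its libraries at 24 h. The falls were the Prader-Willi region genes Snrpn (218, 209 and 204 TPM to 98.7, 92.2 and 97.4 TPM, -1.13 ± 0.04) and Magel2 (-1.14) and the deiodinase Dio3 (-1.26). Peg3 was 40.8, 39.9 and 42.6 TPM and 60.9, 68.8 and 67.7 TPM (0.67 ± 0.05, not called). The median was 0.00 for the paternal list and 0.24 for the maternal list, and the latter was -0.05 after centring.

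Interferon and nucleic acid sensing genes, which detect viral RNA and DNA, had a median of 0.48 over 36 tested genes. As deposited 6 rose and none fell, against 10.1% and 2.01% of all genes. After centring 2 of the 6 were still called, where 4.94% of all genes rose, so the list is not read as a response of its own. Stat2, the transcription factor that type I interferon activates, rose from 13.1, 12.7 and 13.2 TPM to 48.8, 50.6 and 47.4 TPM (1.87 ± 0.07, adjusted p = 7.39e-11). Tap1, the peptide transporter of antigen presentation, rose from 8.45, 7.99 and 7.99 TPM to 24.3, 23.1 and 22.6 TPM (1.46 ± 0.06). These 2 held on both scales.

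The other 4 were H2-K1, the class I MHC heavy chain (46.6, 47.7 and 50.8 TPM to 103, 124 and 118 TPM), the immunoproteasome gene Psmb8 (1.22), B2m (37.6, 38.6 and 34.1 TPM to 86.7, 80.3 and 78.1 TPM) and Irf1 (43.4, 43.8 and 43.8 TPM to 90.3, 92.9 and 91.6 TPM). After centring they were at 0.95, 0.93, 0.85 and 0.77. Of the 6, Tap1, H2-K1, Psmb8 and B2m act in class I antigen presentation. Isg15, a sensitive reporter of the interferon response, was 4.06, 3.85 and 3.23 TPM in DMSO and 6.06, 5.20 and 5.12 TPM at 24 h (0.50 ± 0.13, adjusted p = 0.00372) and was not called.

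Developmental signals and lineage genes showed scattered calls, which stand beside 10.1% of all genes called higher and 2.01% called lower. Bmp7 rose from 1.73, 1.72 and 2.38 TPM to 11.8, 10.2 and 8.64 TPM (2.13 ± 0.13), and Id2, a target of BMP, fell from 56.2, 68.3 and 49.2 TPM to 31.7, 26.9 and 25.8 TPM (-1.02 ± 0.12). They were the 2 calls among 13 BMP and Id genes. Id2 was at -0.90, -0.99 and -0.96, and not called, without DMSO replicate 2, 24 h replicate 2 and 24 h replicate 3. Of 25 Wnt genes 3 rose, namely Rnf43 (1.52), Fzd6 (1.42) and Nkd1 (1.00), and Lef1 and Cdx2 fell. Nkd1 was at 0.72 after centring and at 0.93 to 0.996 without DMSO replicates 1 or 2 or 24 h replicates 1 or 3, and without 24 h replicate 3 the list had 3 calls.

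Fgf8, a growth factor of the primitive streak, rose from 2.72, 3.13 and 2.46 TPM to 14.5, 14.3 and 13.1 TPM (2.15 ± 0.15). Together with Tbx6 (1.52) it made up the 2 rises among 11 mesoderm genes, where Kdr (-1.01) and Cdx2 (-1.07) fell. Kdr was between -0.93 and -0.99 without DMSO replicate 1 or 3 or without 24 h replicate 2 or 3. Cdx2 was at 1.04, 1.26 and 1.28 TPM in DMSO and 0.428, 0.284 and 0.210 TPM at 24 h, and its change was -0.99, with no call, without 24 h replicate 3, which left 2 calls among the mesoderm genes. It and Plac1 (-1.23) were the 2 falls among 15 trophoblast genes, of which 1 was left without 24 h replicate 3, and no trophoblast gene rose.

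The oligodendrocyte factor Olig2 rose from 2.697, 3.01 and 2.93 TPM to 9.13, 10.6 and 10.6 TPM (1.65 ± 0.15), and was the 1 call among 7 neural progenitor genes, where 2 were called without 24 h replicate 3. Its neighbour Olig1 rose from 3.56, 4.45 and 3.86 TPM to 16.2, 13.6 and 14.2 TPM (1.77 ± 0.12). Of 27 endoderm genes 1 was called, Fst, and 2 were without DMSO replicate 2. The feeder fibroblast list had 4 rises among 19 genes, in Postn (1.29), Pdgfrb (1.26), Mmp2 (1.12) and Col6a2 (1.03), and after centring Postn was still called. Over all genes 10.1% rose, and 4.94% after centring. Col6a2 was at 0.99 without DMSO replicate 1 and at 0.96 without 24 h replicate 1. Postn rose from 0.240, 0.141 and 0.217 TPM to 1.11, 1.09 and 1.44 TPM, while the sum over the feeder markers did not rise, as given above.

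None of 29 genes of the 2-cell-like state was called, and their median was -0.03. Zscan4c, the best known of them, was 45.9, 46.5 and 51.4 TPM in DMSO and 39.4, 43.4 and 44.9 TPM at 24 h (-0.17 ± 0.09, adjusted p = 0.0962). Duxf3, a copy of the Dux factor that drives this state, was 2.17, 2.45 and 1.95 TPM and 3.46, 3.10 and 3.19 TPM (0.48 ± 0.12). Members of these families are near-identical copies, and their values are uncertain. Of 26 germline genes Brdt rose from 0.664, 1.11 and 0.623 TPM to 3.50, 3.96 and 2.96 TPM (1.63 ± 0.17), and Hormad1 fell from 18.6, 20.7 and 16.9 TPM to 7.01, 8.63 and 7.54 TPM (-1.23 ± 0.16). Rpl10l (-1.22) was the other fall, where 2.01% of all genes fell and 10.1% rose.

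Other genes of lipid mediators were called beside Alox15. Alox12e, which lies next to Alox15 on chromosome 11, went from 0.148, 0.146 and 0.233 TPM to 2.72, 3.06 and 3.83 TPM (2.45 ± 0.16), and Aloxe3, on the same chromosome, from 0.561, 0.489 and 0.701 TPM to 1.72, 2.50 and 1.63 TPM (1.16 ± 0.18, 0.87 after centring). Ptgs2, the inducible cyclooxygenase, fell from 2.05, 1.49 and 1.95 TPM to 0.467, 0.498 and 0.356 TPM (-1.30 ± 0.11). These were the 4 calls among 9 tested genes, where 10.1% of all genes were called higher and 2.01% lower. Alox12e and Aloxe3 reached 1 TPM in fewer than 3 libraries outside 24 h. They were tested only through their libraries at 24 h, so nothing is read from the number of rises.

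Vnn1, the pantetheinase that releases cysteamine, rose from 0.400, 0.508 and 0.550 TPM to 8.14, 6.88 and 6.42 TPM (2.95 ± 0.13), alone among 5 genes of that list. Of 249 solute carrier genes 31 rose and 12 fell, against 10.1% and 2.01% of all genes, and after centring 15 rose and 17 fell, against 4.94% and 5.13%. Slc39a8, a zinc and manganese importer, rose from 1.63, 1.51 and 1.41 TPM to 14.5, 13.4 and 13.8 TPM (2.83 ± 0.11), and the peptide transporter Slc15a2 from 3.98, 4.098 and 3.78 TPM to 19.3, 25.6 and 19.1 TPM (2.28 ± 0.10). Slc7a7 fell from 145, 151 and 146 TPM to 47.5, 48.8 and 52.1 TPM (-1.57 ± 0.06) and the arginine transporter Slc7a1 from 43.0, 42.3 and 41.3 TPM to 16.7, 14.5 and 16.3 TPM (-1.39 ± 0.05).

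Of 38 collagen and laminin genes 7 rose and 1 fell, and 3 rose after centring. Beside this list and the mitochondrial one, 10.1% of all genes rose and 2.01% fell, and 4.94% and 5.13% after centring. Col11a1, a fibrillar collagen of cartilage, rose from 2.30, 2.15 and 2.15 TPM to 10.2, 10.4 and 10.7 TPM (2.02 ± 0.06). Of 37 genes on the mitochondrial genome 9 rose and none fell, and after centring 4 rose and 1 fell. Without DMSO replicate 3, 14 were called. The mitochondrial ribosomal RNA mt-Rnr1 rose from 344, 334 and 451 TPM to 1020.1, 1304 and 1005 TPM (1.56 ± 0.16) and the tRNA mt-Td from 3.85, 3.84 and 5.66 TPM to 22.3, 17.9 and 14.8 TPM (1.93 ± 0.25). These RNAs lack a usual polyadenylated tail, and the libraries were made from polyadenylated RNA. Nothing about their amount in the cell is therefore read from these values. The mRNA of cytochrome oxidase subunit 1, mt-Co1, was 13198, 12061 and 15187 TPM in DMSO and 24603, 27994 and 25799 TPM at 24 h (0.96 ± 0.10). It was not called, but was at 1.05 and called without DMSO replicate 3 and at 1.00 without 24 h replicate 1. Of 85 cytosolic ribosomal protein genes 58 were lower past the adjusted p at any size of change (25% of all genes were), 1 was called, and the median was -0.19. Their median level in DMSO was 1447 TPM, and all tested genes at 50 TPM or more had a median change of -0.19 as well. Nothing about ribosomal protein genes themselves is therefore read from this share.

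Subunits of Mediator and RNA polymerase II, the machinery that transcribes mRNA, gave no call among 43 genes, with a median of -0.27, and 1 without 24 h replicate 3. At any size of change 29 of them were lower past the adjusted p and 5 higher, against 25% and 42.9% of all genes. Those shares of all genes were 44.1% and 25.9% after centring, and starting levels were not matched. Of 61 replication-dependent histone genes 3 rose, and 5 or 6 were called without DMSO replicate 3, 24 h replicate 2 or 24 h replicate 3. Of 20 Hox genes 3 rose. Over all genes 10.1% rose and 2.01% fell, to be set beside each count in this paragraph. The 23 clustered protocadherins had 1 rise, none without DMSO replicate 1 and 2 without DMSO replicate 2 or 24 h replicate 3. Of 8 Robo and Slit genes 1 rose and 1 fell, and of 16 genes of epithelial to mesenchymal transition 1 rose. None of the 6 Zscan4 genes, 6 Prame-like genes and 7 Rhox genes was called, apart from 1 Rhox gene without 24 h replicate 2 or 3. Among predicted genes with Gm symbols 388 of 3093 rose and 54 fell. By gene type, 25.2% of lincRNAs (123 of 489) and 24.6% of antisense transcripts were called higher, against 8.78% of protein-coding genes and 2.87% of processed pseudogenes. The starting levels of these types were not matched. Of genes below 1 TPM in DMSO 26.3% were called higher, against 0.812% at 50 TPM or more. Nothing about gene type itself is therefore read from these shares.

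The Cthrc1 locus on chromosome 15 was followed because retroviral copies lie near it. Of 5 tested genes Cthrc1 and its neighbour Fzd6 rose. Fzd6, a Wnt receptor, went from 6.38, 6.47 and 6.47 TPM to 18.0, 17.6 and 18.7 TPM (1.42 ± 0.05, adjusted p = 2.34e-11). Rims2, a synaptic scaffold gene downstream, was 12.8, 12.2 and 13.1 TPM and 20.1, 22.6 and 23.1 TPM (0.76 ± 0.06). Slc25a32 (-0.10, adjusted p = 0.58) and Dcaf13 (-0.28), which lie between Cthrc1 and Rims2, were not called, and the Slc25a32 groups of 15.7, 12.5 and 11.6 TPM and 9.89, 13.2 and 13.9 TPM overlapped.

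Distance to retroviral copies was described with the full-length MMERVK and MMETn elements that the study listed. MMETn elements are nonautonomous ERVs related to MMERVK. Of 77 tested genes that start within 20 kb of an MMETn element 18 were called higher (23.4%) and none lower, and of 199 within 20 kb of an MMERVK element 40 were higher (20.1%) and 2 lower, against 10.1% and 2.01% of all genes tested. Within 5 kb the shares called higher were 33.3% of 21 genes and 20.4% of 54. Within 50 kb they were 23.2% of 211 and 19.1% of 482. The starting levels of these genes were not matched to those of the other genes.

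Cthrc1 starts 2.86 kb from an MMETn element, and the long noncoding RNA Gm19792 3.65 kb. Gm19792 rose from 0.129, 0.487 and 0.229 TPM to 5.76, 5.52 and 6.27 TPM (3.05 ± 0.16). Cd59a, an inhibitor of complement whose start is 4.50 kb from an MMETn element, rose from 7.03, 6.78 and 7.16 TPM to 34.7, 40.6 and 35.8 TPM (2.32 ± 0.10). The actin regulator Carmil3, at 7.53 kb, went from 1.49, 1.50 and 1.54 TPM to 11.4, 12.4 and 10.4 TPM (2.56 ± 0.09). Cyp2b23 and Olig1 were within 20 kb as well. Pdk4, which switches off pyruvate dehydrogenase, lies 15.5 kb from an MMERVK element and rose from 1.80, 2.36 and 1.69 TPM to 10.3, 9.79 and 7.82 TPM (2.00 ± 0.15), and Gm11331 overlaps an MMERVK element at its start.

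H3K9me3 and H3K27Ac peaks of the same line bear on the starts of these genes. In each ChIP-seq library the 10000 strongest peaks by the authors' fold enrichment were used, with 3 libraries in DMSO and 3 at 24 h for each mark. The share of gene starts within 1 kb of an H3K9me3 peak was 1.50% ± 0.229 (SD, n = 3) in DMSO and 0.293% ± 0.0635 at 24 h for genes called higher. For genes called lower it was 0.370% ± 0.321 and 0.556% ± 0.735, and for the other genes 0.832% ± 0.206 and 0.434% ± 0.120. The two-sided exact permutation p was 0.1, 0.9 and 0.1, and 0.1 is the smallest that 3 against 3 libraries allow.

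The strongest H3K9me3 peaks covered 22857574 to 36556489 bases in DMSO and 4886129 to 16109713 bases at 24 h, so less sequence was searched at 24 h, and replicate 1 at 24 h had 11474 peaks in all against 104579 to 147611 in the other 5 libraries. Without it the difference for genes called higher was -1.23 points. The part of the covered length in these shares was not tested.

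An H3K9me3 peak was present in all 3 DMSO libraries at the starts of 19 of the 1819 genes called higher, and 14 of these had none in any library at 24 h. The same was true of 64 of the 15743 other genes, of which 47 had none, and of none of the 360 genes called lower. H19, Gm49394, Gm19792, Gm20499 and 2610524H06Rik were among the 14.

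The last gene is shown with its promoter, which holds 26 CG pairs where the median over all promoters is 7, because it combined the mark, a retroviral copy 0.252 kb away and a rise. CG pairs, the sites of DNA methylation, are in capitals.

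2610524H06Rik promoter, chr5:114823419-114823718 (GRCm38.p6, minus strand): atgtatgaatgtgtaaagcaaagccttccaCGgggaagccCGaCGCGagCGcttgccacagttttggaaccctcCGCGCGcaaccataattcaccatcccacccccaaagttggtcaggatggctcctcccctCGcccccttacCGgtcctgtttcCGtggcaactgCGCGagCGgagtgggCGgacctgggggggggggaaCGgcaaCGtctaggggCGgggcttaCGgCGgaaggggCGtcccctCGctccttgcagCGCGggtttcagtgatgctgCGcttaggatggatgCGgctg

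2610524H06Rik rose from 28.7, 31.1 and 28.5 TPM to 74.6, 73.8 and 68.3 TPM (1.28 ± 0.06, 0.99 after centring). Gm20499 overlaps it on the same strand, so the division of reads between them is uncertain. It stood at 12.3, 2.03 and 14.1 TPM in DMSO and 36.0, 28.1 and 29.6 TPM at 24 h (2.02 ± 0.77, adjusted p = 0.0321), and was not called on leaving out any library but DMSO replicate 1 or 3, with 1.21 without DMSO replicate 2.

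H3K27Ac, a mark of active promoters and enhancers, was near 19.2% ± 0.313 of the starts of genes called higher in DMSO and 15.3% ± 6.19 at 24 h (exact permutation p = 0.4), and near 22.4% ± 0.849 and 16.2% ± 3.40 for genes called lower (exact permutation p = 0.1). For the other genes the shares were 36.4% ± 0.699 and 27.2% ± 11.2 (exact permutation p = 0.4). The 3 libraries at 24 h were widely spread, with 30259, 117348 and 45662 peaks in all. The difference at genes called higher, -3.87 points, was -6.92 without 24 h replicate 2 and -0.73 without replicate 3. Those values were -7.69 and -4.35 for genes called lower, and -15.2 and -4.17 for the other genes.

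**Figure D5:**
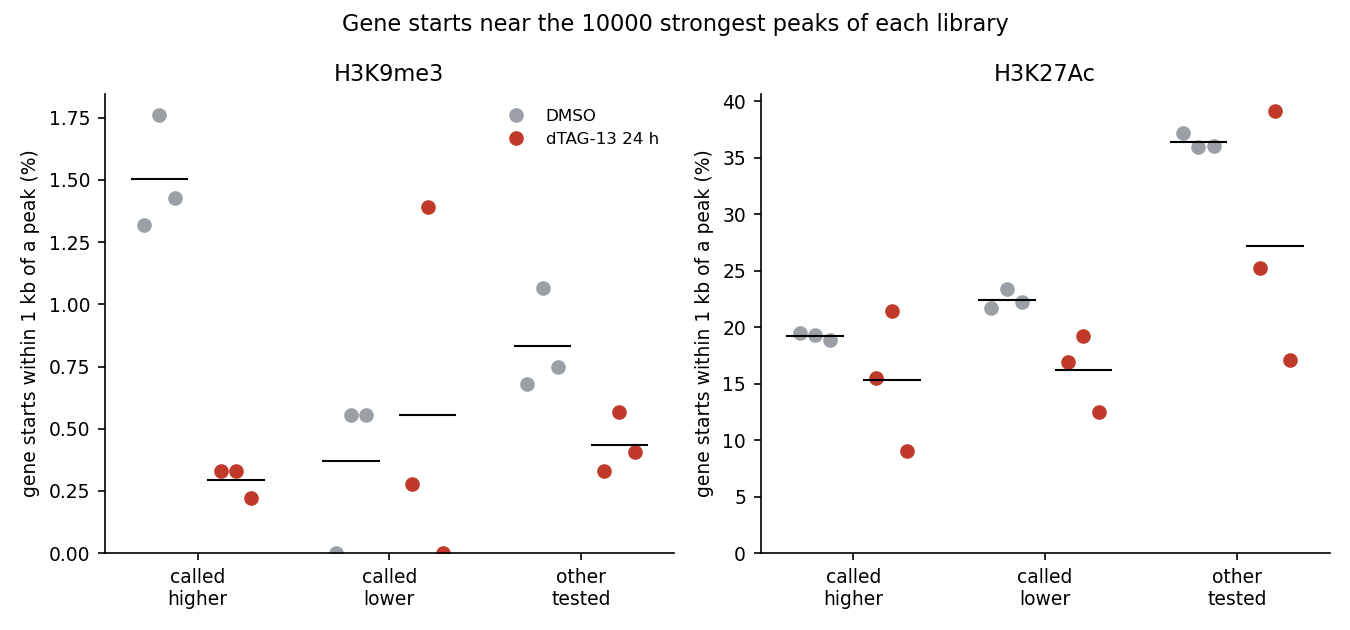
Percent of gene starts within 1 kb of the 10000 strongest peaks of each library for H3K9me3 (left) and H3K27Ac (right), with 1 point for each library and a black line at the mean of 3. Genes called higher had 1.50% near H3K9me3 in DMSO and 0.293% at 24 h, with no overlap between the libraries.

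The same treatment was given to a second line, shERV, which carries doxycycline-inducible short hairpin RNAs against ERV families. Its libraries were made from total RNA after removal of ribosomal RNA, so RNA type differed from the time course along with the line. The growth text of its labels describes feeders, while the study's methods describe their removal before RNA-seq in general, so whether culture differed is not known. The title of the 3 libraries used here names dTAG-13 without doxycycline, but the treatment text mentions doxycycline for every group, and the comparison below rests on the titles. In that line 385 of 16166 genes were called higher (2.38%) and 232 lower (1.44%) at 24 h against its own 3 DMSO libraries.

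Of the 1819 genes that rose in the time course 1430 were tested in the shERV line, where 163 were called higher (11.4%), 6 lower, and 83.6% were higher at any size. Of the 360 that fell 305 were tested, with 86 called lower (28.2%), none higher and 85.9% lower at any size. Seen from the shERV line, 163 of 367 rises (44.4%) and 86 of 222 falls (38.7%) were called in the time course. These 2 sets share no library. The median log2 change over all genes tested in the shERV line was 0.14, so most genes were higher there at any size. The share over all genes was not computed, and the shares at any size cannot be read as a measure of agreement.

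Alox15 went from 1.46, 1.36 and 1.23 TPM in the shERV line to 48.7, 44.7 and 44.8 TPM (4.65), Cthrc1 from 8.33, 11.1 and 8.95 TPM to 130.2, 123 and 126 TPM (3.68), and Nr0b1 from 11.6, 11.9 and 13.7 TPM to 0.748, 0.767 and 0.446 TPM (-3.49). Gbx2 (-2.13), Klf4 (-1.91), Cyp2b23 (3.89), Mest (4.27) and H19 (1.48) were called in it too. In these 8 genes both experiments gave a call in the same direction.

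The difference between the 2 experiments was tested in a joint fit of 18626 genes, in which 1204 were called higher in the time course than in the shERV line (6.46%) and 398 lower (2.14%). Most genes below are named for their time course values, which are one side of this difference. Myc was 46.0, 53.1 and 49.4 TPM in the shERV DMSO libraries and 38.4, 34.6 and 35.0 TPM at 24 h, a change that differed from the time course by -2.15 on the log2 scale (adjusted p = 3.25e-13). Lef1 (-2.45), Fosl1 (-1.98) and Chac1 (-2.69) differed as well, and their changes in the shERV line were 0.37, -0.10 and -0.52.

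Of the amino acid response list 8 members differed downward in this test, and in the shERV line 1 of 27 was called higher and none lower, with a median of -0.03. Chac1 was 17.7, 20.5 and 20.1 TPM there in DMSO and 13.3, 14.2 and 12.5 TPM at 24 h, and Mthfd2 77.6, 84.9 and 81.2 TPM and 72.4, 74.2 and 69.6 TPM. The formative list had 4 falls there and a median of 0.00. Of the naive list 15 of 20 genes fell in the shERV line with a median of -1.35, Nanog among them at 119, 130.3 and 131 TPM to 56.9, 60.7 and 63.6 TPM (-1.06). Nanog differed between the experiments by 1.61 (adjusted p = 6.49e-11).

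The 2-cell list had 21 of 29 genes called higher in the shERV line, with a median of 1.23. Zscan4c went from 40.4, 46.1 and 44.6 TPM there to 104, 99.5 and 114 TPM (1.27), which differed from the time course by -1.44 (adjusted p = 5.06e-09). Stat2, Grin1 and Fgf8, which rose in the time course, were at 10.0 to 11.3 TPM and 13.6 to 15.4 TPM, at 0.205 to 0.281 TPM and 0.0991 to 0.274 TPM and at 1.80 to 2.67 TPM and 1.64 to 2.07 TPM in the shERV line. Line and RNA type cannot be told apart in any of these differences.

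Nascent RNA from the time course line, labelled with 4-thiouridine and read by TT-SLAM-seq in 3 libraries at 24 h and 3 in DMSO, gave 333 of 13357 genes called higher (2.49%) and 121 lower (0.906%) on the log2(FPKM + 0.5) scale. After centring 141 were called higher and 241 lower. The study, which used DESeq2 with the same thresholds, reports somewhat more genes reduced than induced. Of the 1819 rises in mRNA 788 were tested in nascent RNA, with 86 called higher (10.9%), 2 lower and 84.4% higher at any size. Of the 360 falls 191 were tested, with 31 called lower (16.2%), 1 higher and 81.2% lower at any size. The median log2 change over all genes tested in nascent RNA was 0.21, so most genes were higher there. The shares at any size lack a share over all genes beside them and cannot be read as a measure of agreement. Of the nascent calls that were tested in mRNA, 86 of 175 rises (49.1%) and 31 of 62 falls (50%) were called in mRNA.

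Cthrc1 (2.89), Sfi1 (2.17) and Fos (2.42) were called higher in nascent RNA, and Foxd3 (-2.27), Mycn (-2.14), Nr0b1 (-1.84) and Klf4 (-1.02) lower. Myc mRNA changed by -2.60 and its nascent RNA by -1.13. Chac1 went from -3.22 in mRNA to 0.62 in nascent RNA (adjusted p = 0.00357), Trib3 from -1.95 to 0.35 and Mthfd2 from -1.42 to -0.12. Of the amino acid response list 1 gene was called higher in nascent RNA and none lower, with a median of 0.19. Pou5f1, at -1.11 in mRNA, was at -0.12 in nascent RNA (adjusted p = 0.518). The nascent libraries have their own cells and controls, and the difference between mRNA and nascent RNA was not tested.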

How the data were processed

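RNA-seq gene tables of 24 libraries, each with 3 replicates per group, were used. Per the labels, the authors trimmed reads with cutadapt 2.4, aligned them to mm10 with STAR 2.7.5a and ran StringTie 2.0.6; the deposited values are TPM, with read coverage (signal) per gene, and the strand setting is not given in the sources used here. TPM is a share of the library, so a rise of abundant genes lowers the rest. Nascent RNA was deposited by the authors as FPKM of T-to-C converted reads (SLAM-DUNK, GENCODE VM19). ChIP-seq peaks were called by the authors per library with MACS2, and their deposited fold enrichment ranked them. Of 54446 gene IDs, 53495 had the chromosome, start and end of the GRCm38 annotation used for promoters.

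Genes with at least 1 TPM in 3 libraries (0.5 FPKM for nascent RNA) were fitted with limma 3.58.1 (R 4.3.3) on log2(value + 0.5), with a mean-variance trend and Benjamini-Hochberg adjustment. All 15 time course libraries shared 1 fit, the 9 shERV and 12 nascent libraries had their own, and a joint fit of 24 libraries gave the difference between the experiments. Calls needed an adjusted p below 0.05 and over 2-fold. Tables and exact two-sided permutation tests were made with python 3.11.15, numpy 2.4.6, pandas 2.3.3 and scipy 1.17.1, and drawn with matplotlib 3.10.9. The fit was tested on simulated data. Genes named are Trim28, the 10 largest rises and falls of protein-coding genes and the 3 largest of other types (groups not overlapping, at least 5 TPM in the higher group), called or well known members of the gene lists, and genes that the study discusses. Other alternatives were other pseudocounts and filters, median centring, the 6 libraries alone, a replicate block and leaving out each library. The gene lists and members were chosen with earlier results of these data known. The other samples of the series were not used here, and some list members are not reported here.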

Additional observations from a re-analysis of the deposited data

Results flagged for a closer look

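For 59 of the genes named above, the change at 24 h in the time course and in the shERV line differed past the threshold in a direct test, an interaction term in 1 limma fit over both experiments (adjusted p below 0.05 and over 2-fold, against a background of 6.46% of genes higher and 2.14% lower). Most of these genes were named for their time course values, which are one side of this difference. Their number can therefore not be compared with that background. Each value below is the log2 change in the time course minus that in the shERV line. The 2 experiments also differed in RNA type (polyadenylated against ribosome-depleted total RNA), which cannot be told apart from the line, and the sources differ on whether the shERV line was on feeders. On leaving out any 1 library of either experiment, 54 of the 59 stayed past the threshold. The exceptions were Enox1 (-0.96 without shERV DMSO replicate 1), Etv4 (-0.87) and Zfp819 (-0.94) without 24 h replicate 1 of the time course, Sall3 (-0.99 without 24 h replicate 2 of the time course) and Aloxe3 (0.90 without shERV 24 h replicate 1), and the values given are those nearest 0.

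Some genes fell in the time course and fell less, or did not fall, in the shERV line. They were Foxd3 (-1.98), Myc (-2.15), Lef1 (-2.45), Fgf5 (-1.34), Pou3f1 (-1.20), Sall3 (-1.08), Etv4 (-1.02), Ccnd1 (-1.30) and Ccnd2 (-1.08). Others were Fosl1 (-1.98), Fst (-1.45), Enox1 (-1.02), Magel2 (-1.28), Zfp819 (-1.03), Ptgs2 (-1.37) and the microRNA precursors Mir302d (-1.88) and Mir367 (-1.48). Amino acid supply and ATF4 response genes were Chac1 (-2.69), Trib3 (-1.71), Slc7a11 (-1.24), Mthfd2 (-1.25), Slc7a5 (-1.06), Sesn2 (-1.37), Slc7a7 (-1.10) and Slc7a1 (-1.32).

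Values were higher in the time course for rises that were larger there or not called in the shERV line, Slc16a11 (2.57), Sfi1 (1.99), Chst1 (1.11), Zfp773 (2.67), Grin1 (3.13), Gm29439 (2.22), Zim1 (1.35), Stat2 (1.47), Zfp872 (1.20), Zfp30 (1.19), Bmp7 (1.52), Fgf8 (2.29), Tbx6 (1.61), Olig2 (1.11), Olig1 (1.44), Rnf43 (1.22), Aloxe3 (1.06), Vnn1 (1.72), Slc39a8 (1.31), Slc15a2 (2.19), Col11a1 (1.16), Carmil3 (2.03), Pdk4 (1.13), Ddit4 (1.11) and Mmp2 (1.29).

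In the naive pluripotency list the difference ran the other way. Nanog (1.61), Tcl1 (1.56) and Nr5a2 (1.16) were lower in the shERV line at 24 h by more than in the time course, where Nanog was at 0.54. Mest (-1.50) and Zscan4c (-1.44) were higher in the shERV line by more than in the time course.

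RNAs that are short or made without a usual polyadenylated tail differed as well, with Rn7s6 (4.25), mt-Rnr1 (4.96) and mt-Td (2.05), beside the mitochondrial mRNA mt-Co1 (1.15). Rn7s6 was at 0 to 1.54 TPM in DMSO in the time course and at 2139 to 2292 TPM in DMSO in the shERV line. For mt-Rnr1 the shERV DMSO libraries spread from 122 to 2064 TPM, and the difference was 3.76 without shERV DMSO replicate 1, where the level was highest.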

How the results depend on the processing

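Centring each library on its median gave 886 genes higher and 919 lower at 24 h, and a filter at a mean of 5 TPM gave 985 (788 higher and 197 lower) of 11927 tested, since fewer genes were tested. Pseudocounts of 0.1 and 1 gave 2327 and 1320 genes higher and 494 and 266 lower, no filter gave 1977 and 375, and the 6 libraries alone gave 1752 and 336. Leaving out 1 library gave 2047 to 2271 genes. After centring Otx2 was at -0.18 and Setdb1 at -0.16, turned in sign. Leaving out 1 library put Otx2 between -0.0059 (without 24 h replicate 1) and 0.20, and Slc25a32 between -0.19 and 0.0432 (without 24 h replicate 1), with 0.0227 without DMSO replicate 1. Of 2034 values of the 160 named genes over 13 alternatives, 1947 kept their direction and side of the threshold, 67 lost the call, 15 gained it and 5 turned in sign, and 97 of the 128 called genes were called under every alternative. In those cases where the construction of the alternative does not show it, the cause was not tested.

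For 24 h against 6 h, centring gave 670 higher and 587 lower, and a mean of 5 gave 622 (479 and 143). For the shERV line, centring gave 246 higher and 353 lower, and a mean of 5 gave 263 (151 and 112). For the difference between the experiments, centring gave 606 lower, a mean of 5 gave 558 (372 and 186) and a pseudocount of 1 gave 263 lower. For nascent RNA, centring gave 141 higher and 241 lower, a mean of 5 FPKM gave 60 (24 and 36), a pseudocount of 0.1 gave 1102 (899 and 203) and a pseudocount of 1 gave 241 (158 higher). Leaving out 1 library gave 81 (without DMSO replicate 1) to 183 (without DMSO replicate 3) nascent falls.

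The difference in H3K9me3 at the starts of genes called higher was -3.72 points with all deposited peaks, -3.54 with a window of 5 kb and -0.82 with 5000 peaks. For genes called lower it was 0.19 points, but -3.52 with all peaks, -0.19 with 5 kb, and -0.23 (without 24 h replicate 2) to 0.46 (without 24 h replicate 3) on leaving out 1 library. For the other genes it was -2.62, -1.57 and -0.17 under the same 3 alternatives. With all peaks H3K27Ac differed by -16.5 points at genes called higher and -15.7 at genes called lower.

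Same-numbered replicates of DMSO and 24 h did not deviate together (correlations of -0.058, 0.041 and 0.062), so the replicate numbers do not pair the samples. A fit with the replicate number as a block called 1821 genes higher and 364 lower, 1140 and 300 against 6 h, 387 and 233 in the shERV line, 1193 and 398 for the difference between the experiments, and 334 and 128 in nascent RNA. Depth per library is known only in relative terms.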
